A study of Mus musculus with 2 samples.

Results

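The 9 genes Abca1, Abcg1, Lrp1, Lpl, Cd36, Fabp4, Fabp5, Plin2 and Trem2 of cholesterol and lipid handling were followed by single-cell RNA sequencing (scRNA-seq) of mouse fracture callus, the repair tissue that bridges a broken bone. They were taken by symbol, all 9 of 9 were present among the 32285 genes of both count matrices, and Apoe, which the study followed in hypertrophic chondrocytes, served as the reference. Barcodes with at least 200 detected genes and at most 20% mitochondrial unique molecular identifiers (UMIs) were used, which kept 13460 of 14295 barcodes (library MGJ) and 7806 of 8009 (library MGJ2). Levels are given as CPM, the summed UMIs of a class scaled to the usual counts-per-million basis by all UMIs of that class.

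The 2 libraries were prepared from calluses of wild-type mice with a femoral fracture, and the labels name no other treatment. The study's methods give its animals as male C57BL/6J adults with a transverse mid-femoral fracture held by a needle. The design names 2 time points, 10 days (5 mice) and 20 days (5 mice) after fracture, but the sample labels do not state which library belongs to which day, and they do not say how many animals each library holds. Neither library was therefore assigned to a time point, each was described by itself, and no test across samples was possible. All intervals are 95% intervals of counting error only (Poisson for a level, conditional binomial for a ratio, Clopper-Pearson for a share of cells) and do not include variation between animals. A gene was called higher or lower where the ratio of 2 levels was at least 2-fold and both sides together held at least 50 UMIs.

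Cells take up cholesterol and fatty acids through lipoprotein receptors and scavenger receptors, store what is not used as esters and triglycerides in lipid droplets, and return cholesterol to apolipoprotein particles through ABC transporters. Abca1 and Abcg1, the 2 exporters followed here, are textbook targets of the liver X receptors, nuclear receptors that sense oxysterols. Macrophages that clear dead cells and matrix meet large lipid loads, endothelial cells pass fatty acids from blood to tissue, and growing chondrocytes rely on cholesterol for growth-plate signalling.

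Promoters of Abca1 and Plin2 are shown because these 2 members carried the repeats searched for, and because their levels ran together across classes. RefSeq windows of 250 bases before the start site (GRCm38.p6) were available for 5 of the 9 members and for Apoe. They were searched on both strands for DR4, 2 direct repeats of a half-site with 4 bases between them (the arrangement liver X receptors favour), and for DR1, the same half-sites with 1 base between them (the arrangement PPARs favour). The half-site was a degenerate form of AGGTCA that also took G for the leading A, T for the latter G and T for the C, and 1 mismatch to this form was allowed over both half-sites. The Abca1 window on chr4:53159896-53160145 (minus strand) held a DR4 match that began 67 bases before the start, shown in capitals. Capitals in the Plin2 window on chr4:86670060-86670309 (minus strand) mark a DR1 match that began 225 bases before the start.
Abca1: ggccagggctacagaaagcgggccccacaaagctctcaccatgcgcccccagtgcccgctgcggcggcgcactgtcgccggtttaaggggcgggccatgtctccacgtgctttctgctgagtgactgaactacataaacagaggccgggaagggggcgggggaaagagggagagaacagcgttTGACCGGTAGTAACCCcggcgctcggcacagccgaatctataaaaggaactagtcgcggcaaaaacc
Plin2: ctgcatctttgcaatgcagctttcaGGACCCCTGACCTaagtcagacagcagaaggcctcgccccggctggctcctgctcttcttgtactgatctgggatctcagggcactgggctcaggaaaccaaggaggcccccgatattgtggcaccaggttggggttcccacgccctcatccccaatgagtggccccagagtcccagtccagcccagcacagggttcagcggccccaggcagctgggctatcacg
Both matches lie on the strand opposite to the printed one. Among 32851 windows of the same length, 4.05% held DR4 and 5.16% held DR1. Such matches thus occur in many other windows and are not by themselves evidence of binding, which was not tested. Neither repeat was found in the windows of Lrp1, Cd36, Trem2 or Apoe.

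Library MGJ held 135304426 UMIs and library MGJ2 held 61130834, with medians of 5026 and 4952 UMIs per barcode. After removal of doublet calls (140 and 222), 13320 and 7584 cells were clustered without the 9 members, Apoe and the other lipid genes, so that levels of the members did not shape the classes. Of 35 clusters, 28 were named from marker genes with the suffix -like, and 19 drew over 90% of their cells from 1 library, so a cluster may be a property of its library. The labelled tissue was checked by its cartilage, and 2404 and 125 chondrocyte-like cells carried Col2a1, the main cartilage collagen, at 56222 and 45800.5 CPM. Unnamed cells made up 33.3% and 7.69% of the libraries, mostly neutrophil-marked clusters of few UMIs in library MGJ. Chondrocyte-like cells were deep, with median UMIs of 21364.5 and 29954 against 3801.5 and 4824 in all other cells. The libraries shared 19 barcodes, 13 of them among kept cells.

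scRNA-seq analysis revealed that the members did not follow a single class. Among named classes of at least 50 cells (18 in library MGJ and 13 in library MGJ2), macrophage-like or monocyte-like cells held the highest level of Abca1, Fabp5, Plin2 and Trem2 (4 of 9 members, MGJ) and of Abca1 and Lrp1 (2 of 9 members, MGJ2). The 25 macrophage-like cells of library MGJ2 were too few to be ranked, and unnamed clusters were not ranked, among them a Cd300e-led cluster of 157 cells in library MGJ2 whose Abcg1, Cd36 and Apoe levels (727, 1169 and 2918 CPM) lay above every ranked class of that library. Lpl was highest in osteoclast-like cells in library MGJ, Fabp4 in endothelial-like cells in both libraries, Lrp1 in fibroblast-like cells in library MGJ and Plin2 in mature neutrophil-like cells in library MGJ2. Among ranked classes, Apoe was highest in macrophage-like cells at 12510 CPM in library MGJ and in monocyte-like cells at 2150 CPM in library MGJ2. The unranked macrophage-like cells of library MGJ2 were at 9045 CPM. Chondrocyte-like cells stood last of the ranked classes for Apoe in both libraries.

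**Figure D1:**
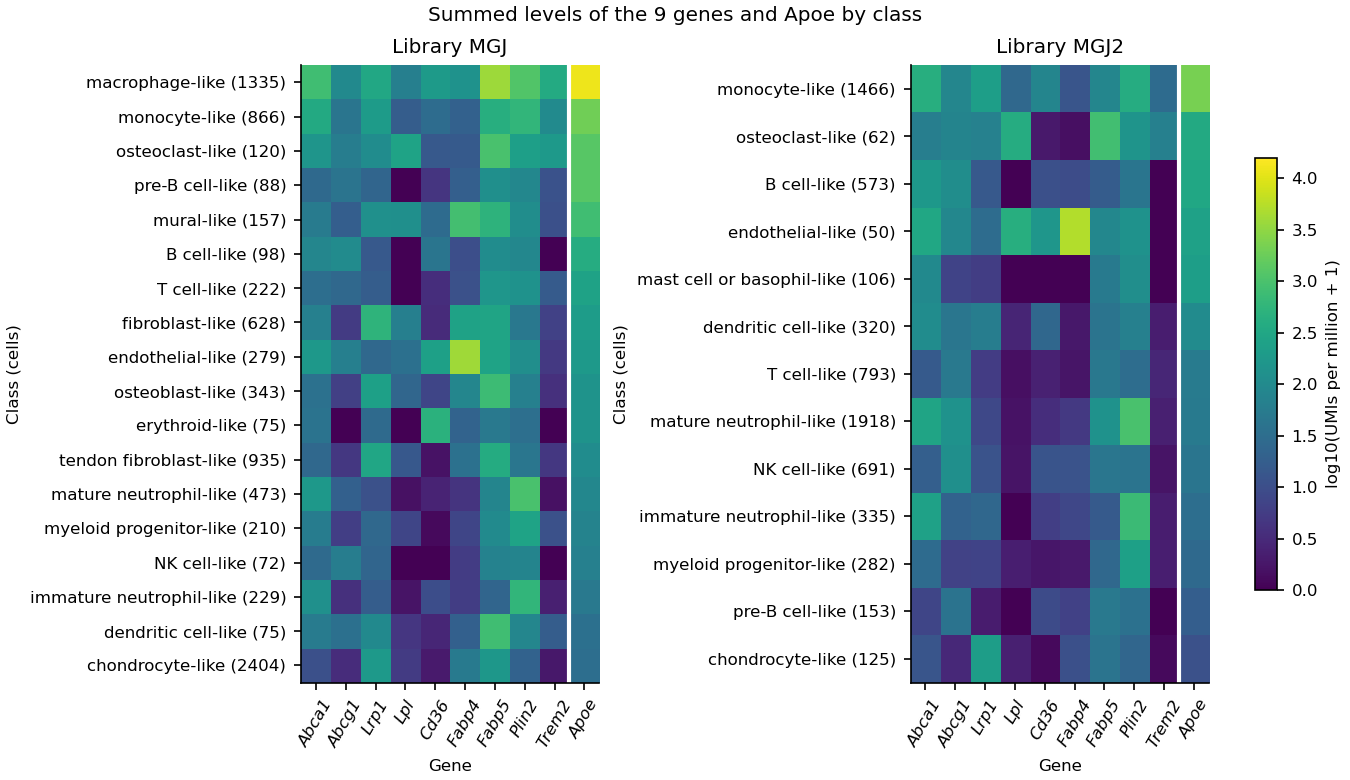
Heat map of log10(CPM + 1) of the 9 genes and Apoe (columns) in classes of at least 50 cells (rows, cell numbers in brackets, ordered by Apoe), library MGJ on the left and MGJ2 on the right. Fabp4 is brightest in endothelial-like cells in both panels, and the chondrocyte-like row at the bottom is dark except for Lrp1 (181 and 214 CPM) and, in library MGJ, Fabp5 (163 CPM) and Fabp4 (51.6 CPM).

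Abca1 (chr4:53030787-53159895, minus strand, GRCm38) exports cholesterol and phospholipid to lipid-poor apolipoproteins. Its level in library MGJ was 828 CPM in macrophage-like cells (interval 812 to 844), 350 in monocyte-like cells, 175 in endothelial-like cells and 173 in mature neutrophil-like cells. Macrophage-like, monocyte-like and endothelial-like cells differed beyond counting error at each step, while endothelial-like and mature neutrophil-like cells did not differ beyond counting error (ratio 1.01, interval 0.875 to 1.17). Library MGJ2 had 423 CPM in monocyte-like, 319 in endothelial-like, 283 in mature neutrophil-like and 256 in immature neutrophil-like cells. Monocyte-like cells led there by 1.33-fold (interval 1.12 to 1.58). Chondrocyte-like cells were at 9.41 and 11.8 CPM, the lowest ranked class in library MGJ.

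Abcg1 (chr17:31057675-31117988, plus strand) exports cholesterol to mature lipoprotein particles. It was spread over lymphoid and myeloid classes, with 106 CPM in B cell-like cells and 98.7 CPM in macrophage-like cells in library MGJ, which did not differ (ratio 1.07, interval 0.678 to 1.62). The order of ranked classes in library MGJ2 was mature neutrophil-like (136 CPM), NK cell-like (121 CPM) and B cell-like (113 CPM), with neighbours again within counting error. Its 25 unranked macrophage-like cells held more, at 2.65-fold the level of monocyte-like cells (85.3 CPM). Both exporters were found in phagocytes, and Abcg1 also stood high in the order in B cell-like and NK cell-like cells.

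Lrp1 (chr10:127538161-127621148, minus strand), a large endocytic receptor that binds Apoe among many ligands, was found in mesenchymal classes and in mononuclear phagocytes. Library MGJ had 536 CPM in fibroblast-like cells (interval 523 to 550), 330 in macrophage-like, 302 in tendon fibroblast-like and 245 in osteoblast-like cells, each step larger than counting error. In library MGJ2, which held no fibroblast-like cells, monocyte-like cells at 228 CPM and chondrocyte-like cells at 214 CPM did not differ (ratio 1.07, interval 0.987 to 1.15). Fibroblast-like over all other cells, 2 of 9 members were called higher (9.51% of all tested genes were), Lrp1 by 2.92-fold and Lpl by 3.17-fold (64.5 against 20.4 CPM), and 6 of 9 lower (20.1%). Lymphocytes held little Lrp1, with 4.67 CPM in T cell-like and 1.09 CPM in pre-B cell-like cells of library MGJ2. After each cell was thinned to 2000 UMIs, 28.8% and 32.8% of chondrocyte-like cells had an Lrp1 UMI against 1.33% and 0.667% of pre-B cell-like cells (unthinned 91.1% and 93.6% against 9.09% and 1.31%), with median depths of 4839.5 and 8453 UMIs in pre-B cell-like cells.

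Cd36 (chr5:17781690-17888801, minus strand), a scavenger receptor and fatty acid transporter, had its highest level among the ranked classes outside the macrophage-like and monocyte-like cells, although the unnamed Cd300e-led cluster held more (718 CPM in 20 cells of library MGJ and 1169 CPM in 157 cells of library MGJ2). Erythroid-like cells of library MGJ led with 481 CPM (interval 410 to 562), followed by endothelial-like cells at 239 and macrophage-like cells at 193. The erythroid-like class held 75 cells and a summed macrophage marker level of 147 CPM against 5741 CPM in macrophage-like cells, and its part in the Cd36 level was not tested. Endothelial-like cells led the ranked classes of library MGJ2 with 162 CPM over monocyte-like cells at 80.3 CPM (ratio 2.01, interval 1.56 to 2.56). Its 25 unranked macrophage-like cells held more, at 2.81-fold the level of monocyte-like cells. The 4 erythroid-like cells of that library were at 167 CPM. Chondrocyte-like cells held 1.05 and 0.261 CPM, the latter from 1 UMI.

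Lpl (chr8:68880491-68907448, plus strand), the lipase that frees fatty acids from circulating triglyceride, marked osteoclast-like cells and vessel-associated cells. Osteoclast-like cells had 271 CPM in library MGJ (interval 252 to 292) and 391 CPM in library MGJ2 (interval 365 to 419). Mural-like cells, which surround vessels, were second in library MGJ with 124 CPM, and endothelial-like cells in library MGJ2 had 429 CPM, not separable from osteoclast-like cells (ratio 1.1, interval 0.931 to 1.29). These 120 and 62 osteoclast-like cells supplied 22.2% and 37.7% of all Lpl UMIs while holding 1.98% and 3.72% of all UMIs. Below the size needed for ranking, 19 reticular stromal-like cells of library MGJ2 had 2062 CPM, the 9 mural-like cells 1533 CPM and the 25 macrophage-like cells 601 CPM. Pre-B cell-like cells had no Lpl UMI in either library.

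Over monocyte-like cells, Lpl was 16.9-fold higher in osteoclast-like cells in library MGJ and 15.7-fold in library MGJ2. Fabp5 was 2.36-fold and 10.2-fold higher in the same comparison, whereas Abca1, Cd36 and Plin2 were lower in both libraries (ratios 0.442, 0.471 and 0.396, then 0.145, 0.0115 and 0.366). In all, 2 of 9 members were called higher in library MGJ (29.2% of all tested genes were) and 3 of 9 in library MGJ2 (27.4%), Trem2 being the added member with 67.1 against 28.9 CPM. Called lower were 3 of 9 members (14.7% of all tested genes) and 5 of 9 (22.1%). Set against macrophage-like cells in library MGJ, osteoclast-like cells had 4.25-fold more Lpl (interval 3.84 to 4.71) and 6 of 9 members lower (14.9% of all tested genes), with Cd36 at 13.8 against 193 CPM. Higher was 1 of 9 (19.7%). Against the 25 macrophage-like cells of the other library, 7 of 9 were lower (14.9%) and none higher (19.8%), and Lpl lay the other way, at 391 against 601 CPM (ratio 0.651, interval 0.554 to 0.768), which was not called. Macrophage markers summed to 894 CPM in osteoclast-like cells of library MGJ and to 212 CPM in library MGJ2, and their part in these levels was not tested.

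Fabp4 (chr3:10204088-10208576, minus strand), a fatty acid chaperone of adipocytes, macrophages and capillary endothelium, was concentrated in vessels. Endothelial-like cells had 3959 CPM in library MGJ (interval 3885 to 4034) and 5136 CPM in library MGJ2 (interval 4925 to 5354). Mural-like cells followed in library MGJ with 869 CPM, and monocyte-like cells came next among the ranked classes of library MGJ2 with 11.6 CPM, a drop of 442-fold. The unnamed Cd300e-led cluster of that library lay between them at 1324 CPM, as did the 25 unranked macrophage-like cells. The endothelial-like class supplied 51.7% and 55.4% of all Fabp4 UMIs from 2.09% and 0.746% of all UMIs. A Fabp4 UMI was found in 78.7% and 94.1% of endothelial-like cells thinned to 2000 UMIs (unthinned 82.4% and 80%) against 1.33% and 0.667% of pre-B cell-like cells. The thinned shares rest on 216 and 34 endothelial-like cells, since 63 and 16 cells with too few UMIs to thin were left out.

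Endothelial-like over all other cells, 3 of 9 members were called higher in each library (19.7% and 22.3% of all tested genes were). Fabp4 and Cd36 were called in both, by 50.1-fold and 9.96-fold in library MGJ and by 165-fold and 4.08-fold in library MGJ2. The third member was Abcg1 in library MGJ (64.8 against 20.2 CPM) and Lpl in library MGJ2 (429 against 35.7 CPM), the other ratios being 1.24 for Abcg1 in library MGJ2 and 1.41 for Lpl in library MGJ. Gpihbp1, which anchors lipoprotein lipase to the capillary wall, was at 302 and 286 CPM in endothelial-like cells. Called lower were 4 of 9 members in library MGJ (22.1% of all tested genes) and 3 of 9 in library MGJ2 (26.4%), Lrp1, Plin2 and Trem2 among them in both. The adipocyte marker Adipoq stood at 64.6 CPM in the 50 endothelial-like cells of library MGJ2 and had no UMI in those of library MGJ, and its part in the Fabp4 and Lpl levels was not tested.

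Fabp5 (chr3:10012548-10016607, plus strand), a fatty acid chaperone with wide expression, led in macrophage-like cells of library MGJ at 3817 CPM (interval 3783 to 3852). Osteoclast-like cells had 995 CPM, dendritic cell-like cells 810 and osteoblast-like cells 758, the last 2 within counting error of each other. Among ranked classes of library MGJ2, osteoclast-like cells led at 858 CPM with mature neutrophil-like cells next at 137 CPM, a ratio of 6.24 (interval 5.72 to 6.82). The 25 unranked macrophage-like cells held more, with 24.1-fold the level of monocyte-like cells (84.2 CPM). The share of cells thinned to 2000 UMIs with a Fabp5 UMI was 69.0% among macrophage-like cells (MGJ), and in chondrocyte-like cells (20.0% and 6.4%) it was near that of T cell-like cells (18.0% and 7.45%). A search of annotated gene names found 1 Fabp5 pseudogene, Fabp5l2, and pseudogenes without Fabp5 in their name were not searched for. Fabp4 and Fabp5 are paralogs, so how reads of near-identical sequence were assigned is uncertain.

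Plin2 (chr4:86648386-86670060, minus strand) coats lipid droplets, the organelles of neutral lipid storage. It was high in granulocytes as well as in macrophages. Library MGJ had 1130 CPM in macrophage-like cells, 996 in mature neutrophil-like, 591 in monocyte-like and 582 in immature neutrophil-like cells, the last 2 within counting error. Library MGJ2 had 969.5 CPM in mature neutrophil-like, 723 in immature neutrophil-like and 399 in monocyte-like cells, every step larger than counting error. Unnamed clusters of low UMI number in library MGJ, led by Cstdc4 (2053 cells), Ccl3 (1738 cells) and Ifit1 (376 cells), had 931, 709 and 937 CPM, and their best marker list was that of mature neutrophils.

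Mature neutrophil-like over all other cells, Plin2 was 4.18-fold (interval 3.99 to 4.39) and 4.38-fold (interval 4.23 to 4.53) higher. It was the 1 member of 9 called higher in library MGJ (7.67% of all tested genes were) and 1 of 2 in library MGJ2 (8.69%), where Abcg1 was 2.1-fold higher. All other cells of library MGJ took in the unnamed Cstdc4-, Ccl3- and Ifit1-led clusters, whose best marker list was that of mature neutrophils. Of the 13 genes of the lipid droplet list, which includes Plin2, 9 and 8 had enough UMIs. Called higher were 5 in library MGJ (Plin2, Dgat1, Dgat2, Hilpda and G0s2) and 4 in library MGJ2 (Plin2, Dgat1, Dgat2 and G0s2), while Cidea and Fitm2 were called lower in library MGJ and Fitm2 in library MGJ2. Dgat1 and Dgat2 make triglyceride, and G0s2 inhibits the droplet lipase Pnpla2. Called lower in mature neutrophil-like cells were 6 of 9 members in library MGJ (71.3% of all tested genes) and 5 of 9 in library MGJ2 (69.1%), shares near or below those of all genes. In mature over immature neutrophil-like cells, Fabp5 was 3.54-fold and 9.47-fold higher (1 and 2 of 9 members, 15.1% and 21.4% of all tested genes), and Abcg1 in library MGJ2 was at 136 against 19.9 CPM. Lrp1 was the 1 member called lower in library MGJ2 (7.06 against 24.1 CPM, 22.7% of all tested genes), and none was in library MGJ (11.3%). The mature neutrophil-like class was mostly a Retnlg- and Mmp8-led cluster in library MGJ (335 of 473 cells). That cluster scored 4.74 on the mature and 5.01 on the immature neutrophil marker list. In library MGJ2 the class was mostly a Gm39321-led cluster (1482 of 1918 cells).

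Trem2 (chr17:48346401-48354147, plus strand), a lipid-sensing receptor of phagocytes that also binds Apoe, was found mainly in mononuclear phagocytes and osteoclast-like cells. Library MGJ had 364 CPM in macrophage-like cells (interval 353 to 374), 187 in osteoclast-like and 103 in monocyte-like cells, and the next class, dendritic cell-like, lay 6.31-fold below. Among ranked classes of library MGJ2, osteoclast-like cells had 67.1 CPM and monocyte-like cells 28.9 CPM, with T cell-like cells 15.5-fold below. Its 25 unranked macrophage-like cells held more, at 15.4-fold the level of monocyte-like cells. Macrophage-like cells supplied 75.2% of Trem2 UMIs in library MGJ. A Trem2 UMI was seen in 38.2% of macrophage-like cells thinned to 2000 UMIs in that library and in 2.67% of pre-B cell-like cells.

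Macrophage-like and monocyte-like cells were then compared within each library. Fabp5, Fabp4, Cd36, Lpl, Trem2 and Abcg1 were at least 2-fold higher in macrophage-like cells in both libraries, Abca1 in library MGJ only, and Lrp1 and Plin2 in neither. In library MGJ the ratios were 9.04 for Fabp5, 7.23 for Fabp4, 6.59 for Cd36, 3.97 for Lpl, 3.53 for Trem2, 2.36 for Abca1 and 2.33 for Abcg1, beside 6.46 for Apoe (12510 against 1938 CPM). Library MGJ2 gave 24.1 for Lpl, 24.1 for Fabp5, 15.4 for Trem2, 12.6 for Fabp4, 2.81 for Cd36 and 2.65 for Abcg1, beside 4.21 for Apoe (9045 against 2150 CPM). Abca1 in library MGJ2 was at 425 against 423 CPM (ratio 1.01, interval 0.837 to 1.2), and Plin2 was at ratios of 1.91 and 1.62.

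Thus 7 of 9 members were called higher in library MGJ, where 13.2% of all tested genes were, and 6 of 9 in library MGJ2, where 19.9% were. No member was called lower, where 3.49% and 16.1% of all tested genes were. All 9 ratios were above 1 in each library. The median log2 ratio was 1.82 and 1.49 over the members, against 0.24 and 0.19 over all tested genes with UMIs on both sides. Macrophage-like cells numbered 1335 and 25, monocyte-like cells 866 and 1466. Different clusters held most monocyte-like cells in each library, the Ms4a4c-led cluster in library MGJ (812 cells) and the E230029C05Rik-led cluster in library MGJ2 (1367 cells).

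**Figure D2:**
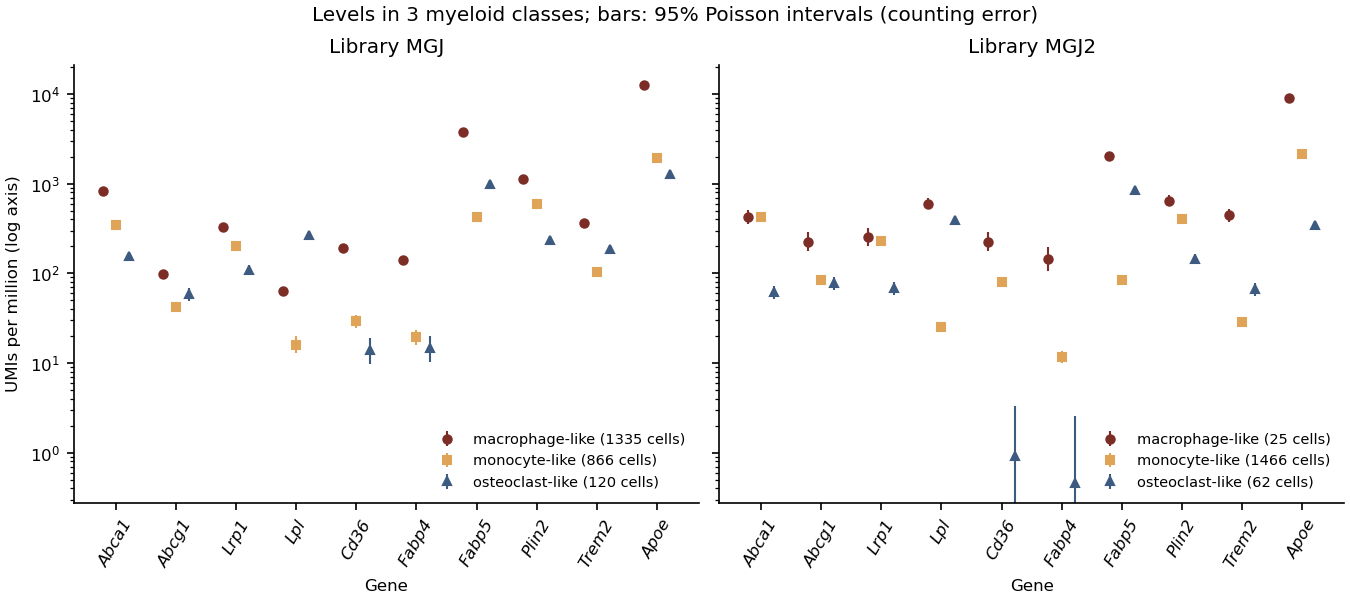
CPM on a log axis of each gene in macrophage-like (circles), monocyte-like (squares) and osteoclast-like (triangles) cells, library MGJ on the left and MGJ2 on the right, with 95% Poisson intervals as bars (2 bars of library MGJ2 run past the lower edge). Circles lie above squares for every gene except Abca1 in library MGJ2, where 425 and 423 CPM overlap, and triangles lead for Lpl in library MGJ.

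At a clustering resolution of 0.5, which placed 2140 and 55 cells in the macrophage-like and 110 and 1607 in the monocyte-like class, Cd36 fell to ratios of 0.945 and 0.993 and Fabp4 to 0.635 and 0.939, and Abcg1 to 0.624 in library MGJ. Ratios of Fabp5 stayed between 3.40 and 13.3 in library MGJ and between 6.95 and 24.1 in library MGJ2 over all alternatives, those of Lpl between 2.93 and 11.7 and between 17.2 and 36.5.

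Macrophage-like cells of library MGJ comprised a cluster led by C1qa (943 cells) and a cluster led by Arg1 (392 cells). Apoe was at 16213 CPM in the former and 1496 CPM in the latter. Fabp5 (4743 against 1066 CPM), Fabp4 (173 against 38.9), Trem2 (430 against 165) and Lpl (77.3 against 23.6) were lower in the Arg1-led cluster. These were 4 of 9 members, where 7.34% of all tested genes were called lower. Cd36 (292 against 160 CPM), Plin2 (1463 against 1018 CPM) and Lrp1 (418 against 300 CPM) lay the other way at ratios of 1.83, 1.44 and 1.39, all under 2-fold, and Abca1 was at 766 against 848 CPM. No member was called higher (3% of all tested genes).

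Among monocyte-like cells, Fabp5 was lower in the E230029C05Rik-led cluster, which carried Adgre4 and Cx3cr1, than in the Ms4a4c-led cluster in both libraries (72.8 against 442 CPM and 74.4 against 212 CPM). Called lower there were 3 of 9 members in library MGJ (13.2% of all tested genes) and 2 of 9 in library MGJ2 (4.18%). Lpl was at 17.7 against 120 CPM in library MGJ2. Cd36 was the 1 member higher in library MGJ, at 94.6 against 25.7 CPM (4.44% of all tested genes), and was at 80.4 against 79.4 CPM in library MGJ2, where no member was called higher (4.16%). Only 54 cells of library MGJ and 99 of library MGJ2 formed the smaller side.

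A small unnamed cluster, 20 cells in library MGJ and 157 in library MGJ2, was led by Cd300e, Lilra5, Ear2, Adgre4, Ace, Cd36, Pparg and Treml4. Among the members it combined high Fabp4, Cd36 and Abcg1 with low Fabp5. Fabp4 was at 1099 and 1324 CPM there against 19.3 and 11.6 CPM in monocyte-like cells, ratios of 57.0 (interval 41.8 to 77.6) and 114 (interval 96.3 to 136). Cd36 was at 718 and 1169 CPM (ratios 24.5 and 14.6) and Abcg1 at 498 and 727 CPM (ratios 11.8 and 8.52). These 3 of 9 members were called higher in both libraries, where 12.4% and 10.1% of all tested genes were. Fabp5 was at 132 and 28.4 CPM, ratios of 0.312 and 0.337, among 4 of 9 and 2 of 9 members called lower (32.5% and 13.2% of all tested genes).

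Pparg, the nuclear receptor of adipocytes and alveolar macrophages, was at 73.2 and 64.5 CPM in the Cd300e-led cluster and at 1.70 and 2.80 CPM in monocyte-like cells. In library MGJ2 the cluster supplied 38.5% of all Cd36 UMIs and 25.5% of all Fabp4 UMIs from 1.33% of all UMIs. None of the 5 adipocyte markers Adipoq, Lep, Retn, Acvr1c and Cfd had a UMI there in either library. Of the 8 endothelial markers, 6 were at 0 in both libraries, their sum being 87.9 and 173 CPM against 5155 and 6750 CPM in endothelial-like cells. Gpihbp1 had no UMI. Macrophage markers summed to 703 and 430 CPM, with 4 and 3 of 8 at 0. Thinned to 2000 UMIs, 66.0% of 144 cells in library MGJ2 had a Fabp4 UMI (interval 57.6 to 73.7), 70.8% a Cd36 UMI and 66.7% an Abcg1 UMI, against 0.667%, 1.33% and 12.7% of pre-B cell-like cells.

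**Figure D3:**
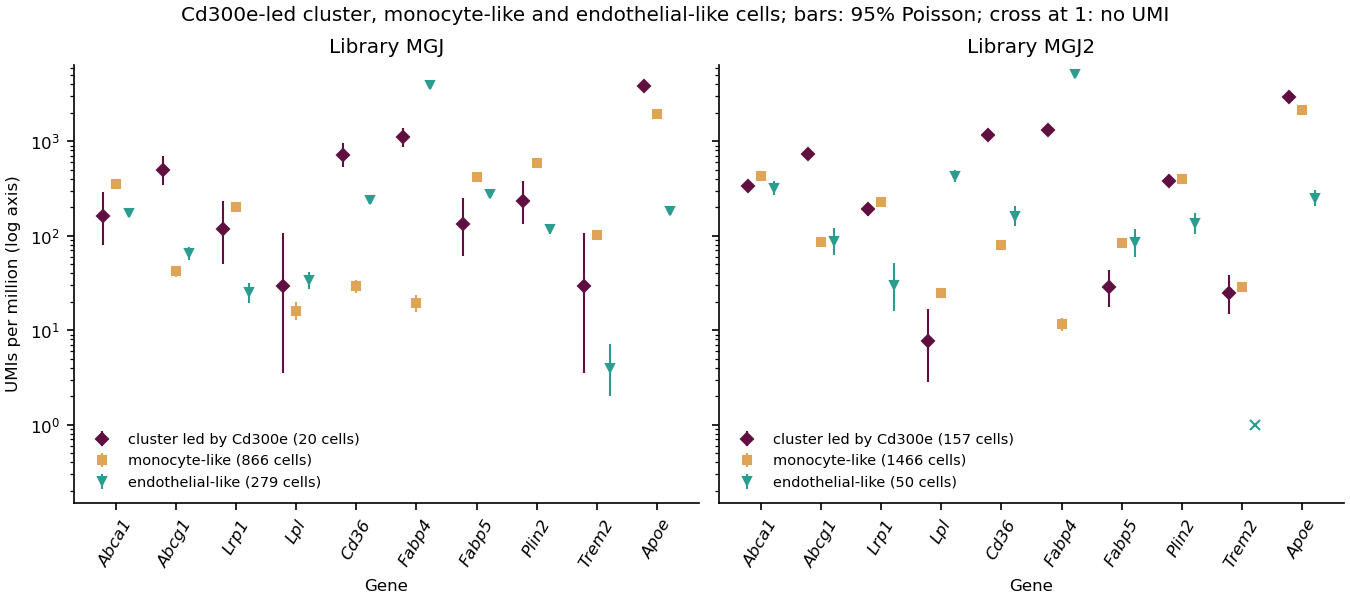
CPM on a log axis of each gene in the Cd300e-led cluster (diamonds), monocyte-like cells (squares) and endothelial-like cells (triangles) with 95% Poisson intervals, library MGJ on the left and MGJ2 on the right, a cross at 1 standing for no UMI. Diamonds lie above squares for Abcg1, Cd36 and Fabp4 in both panels (1324 against 11.6 CPM for Fabp4 in library MGJ2) and below them for Fabp5.

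Chondrocytes, in which the study followed Apoe, held little of most members. Chondrocyte-like over all other cells, 8 of 9 members were called lower in each library, every member but Lrp1, where 25.9% and 33.3% of all tested genes were. The median log2 ratio was -3.78 and -3.96 over the members, against -0.20 and -0.29 over all tested genes. Trem2 in library MGJ stood at 0.852 against 74.9 CPM, and Plin2 at 19.9 against 396 CPM. Abca1 was at 9.41 against 213 CPM there and at 11.8 against 183 CPM in the smaller library, ratios of 0.0443 and 0.0642. Apoe itself was at 31.7 against 2263 CPM and 10.2 against 698 CPM, ratios of 0.0140 and 0.0146. All other cells include the phagocyte, neutrophil and vessel classes, and low levels were partly shared by tendon fibroblast-like cells of library MGJ. These had 0.620 CPM of Cd36 and 36.2 CPM of Fabp4, beside 1.05 and 51.6 CPM in chondrocyte-like cells. Their levels of the other members were higher, with 3.72 CPM of Trem2, 44.4 CPM of Plin2 and 25.1 CPM of Abca1.

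Lrp1 was the exception, and its ratio differed between the libraries. It was at 181 against 236 CPM in library MGJ (ratio 0.765, interval 0.746 to 0.784) and at 214 against 81.9 CPM in library MGJ2 (ratio 2.61, interval 2.42 to 2.81), the 1 member called higher (19.7% of all tested genes). The level in chondrocyte-like cells was similar in both, and the level in all other cells was not, the makeup of which differed: 628 fibroblast-like and 935 tendon fibroblast-like cells in library MGJ against 0 and 14 in library MGJ2. Its part in the Lrp1 ratio was not tested. The Apoe share in chondrocyte-like cells thinned to 2000 UMIs was 5.53% and 0.8% (unthinned 43.5% and 21.6%), beside 9.33% and 2% of pre-B cell-like and 2.70% and 5.38% of dendritic cell-like cells. The Abca1 share of chondrocyte-like cells was 2.11% and 4%, beside 4% (3 of 75 cells) and 0% (0 of 150 cells, interval 0 to 2.43) of pre-B cell-like cells. The counting intervals of these shares overlapped within each library, which is not a test of a difference. Summed Apoe levels were apart in some of these classes. Pre-B cell-like cells were at 1266 and 16.9 CPM and dendritic cell-like cells at 34.4 and 106 CPM. Chondrocyte-like cells were at 31.7 and 10.2 CPM.

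**Figure D4:**
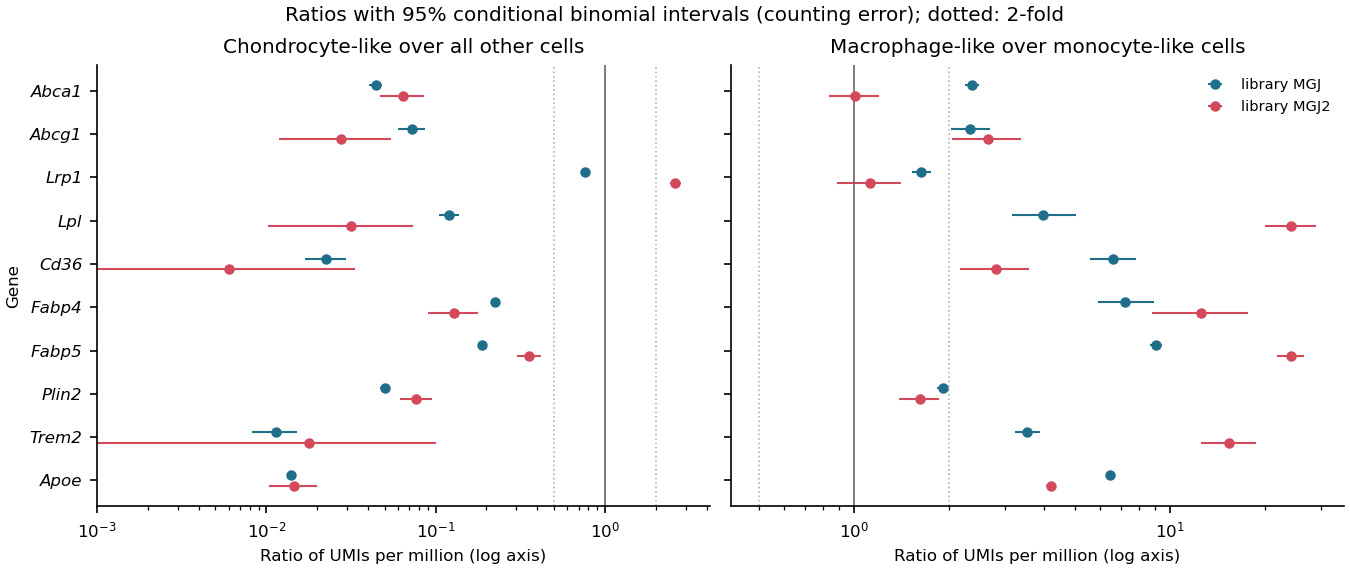
Ratios of CPM on log axes with 95% conditional binomial intervals for chondrocyte-like over all other cells (left) and macrophage-like over monocyte-like cells (right), blue for library MGJ and red for MGJ2, dotted lines at 2-fold and a solid line at 1 (2 intervals on the left run past the edge). All genes except Lrp1 lie left of the lower dotted line on the left, and Abca1 of library MGJ2 sits at 1.01 on the right.

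Chondrocyte-like cells were then cut by Col10a1, the collagen of hypertrophic cartilage, into low (under 1000 CPM per cell), moderate (1000 to 10000 CPM) and high (10000 CPM or more). Plin2 was the member that was higher in Col10a1-high cells of both libraries. Low, moderate and high cells had 11.9, 17.3 and 47.5 CPM (MGJ) and 13.3, 19.1 and 34.2 CPM (MGJ2). Its level was lowest in low and highest in high cells, with high-to-low ratios of 3.99 (interval 3.49 to 4.56) and 2.57 (interval 1.51 to 4.58). This was 1 of 9 members called higher in each library (8.5% and 6.74% of all tested genes were), of 7 and 3 members with enough UMIs.

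Fabp5 lay the opposite way, with 190, 150 and 88.0 CPM (MGJ) and 59.5, 64.2 and 14.4 CPM (MGJ2) from low to high, and high-to-low ratios of 0.463 and 0.242. Fabp4 was at 59.6, 57.1 and 21.6 CPM in library MGJ (ratio 0.363, interval 0.315 to 0.417) and had too few UMIs in library MGJ2. Called lower were thus 2 of 9 members in library MGJ (10.3% of all tested genes) and 1 of 9 in library MGJ2 (9.25%). Lrp1 was at 147 against 191 CPM and 152 against 277 CPM, and Abca1 in library MGJ was at 10.2 against 9.81 CPM, neither called. Apoe was at 33.1, 25.5 and 32.0 CPM in library MGJ, a ratio of high to low of 0.969 (interval 0.855 to 1.1), and had too few UMIs in library MGJ2 for a call. Moderate over low cells of library MGJ, Abcg1 was the 1 member of 9 called lower, from 4 UMIs in moderate cells (5.99% of all tested genes lower, 2.86% higher). Between these stages in library MGJ2, 2 members had enough UMIs and neither was called (4.02% lower, 3.87% higher).

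**Figure D5:**
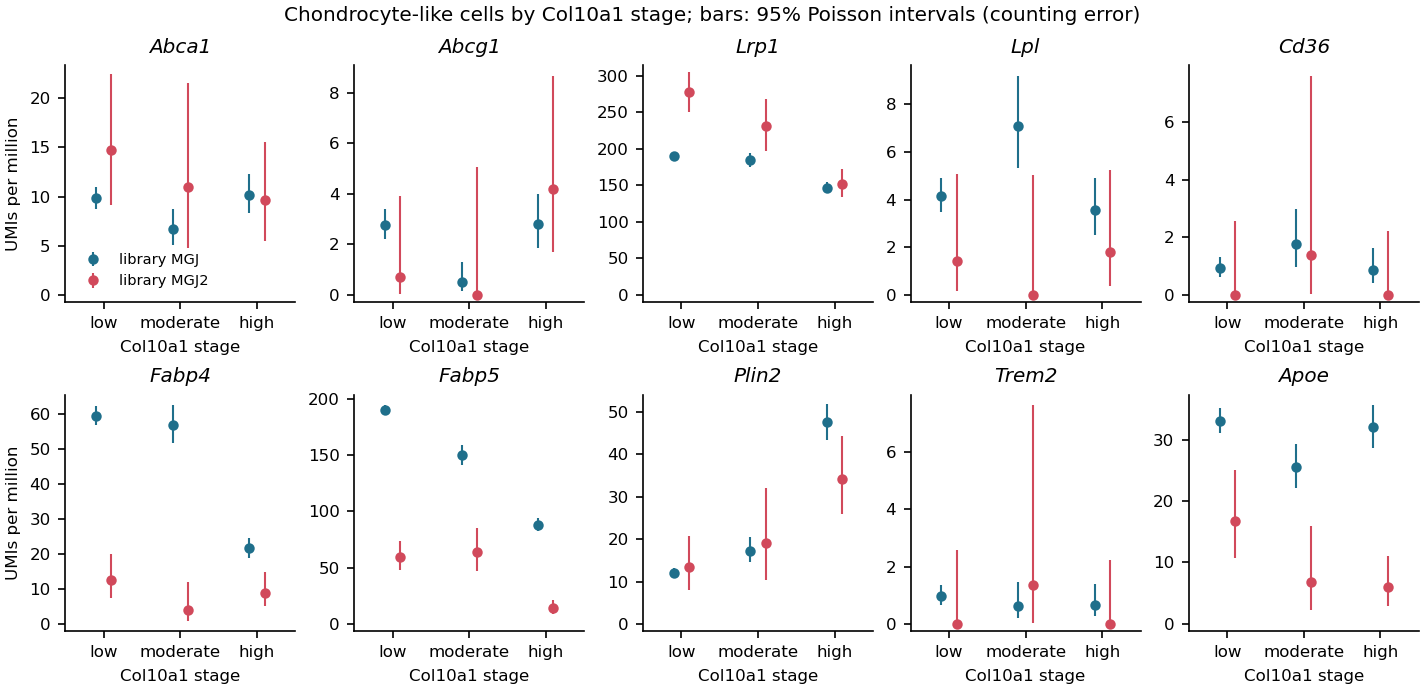
CPM of each gene in Col10a1-low, -moderate and -high chondrocyte-like cells, blue for library MGJ (1571, 335 and 498 cells) and red for MGJ2 (47, 25 and 53 cells), with 95% Poisson intervals and a separate axis for each gene. Plin2 is highest in high cells in both libraries (47.5 and 34.2 CPM), and Fabp5 is lowest there (88.0 and 14.4 CPM).

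The stages are ranges and not cell types: 56 and 57 cells (MGJ) and 5 and 5 cells (MGJ2) lay within 1.2-fold of the lower and upper limit. Depth was similar, with median UMIs of 21003, 23809 and 21049.5 in library MGJ, and after thinning 2.13%, 3.66% and 9.18% of low, moderate and high cells of that library had a Plin2 UMI. The share in high cells (interval 6.78 to 12.1) lay above that in low cells (interval 1.47 to 2.97) beyond counting error. It was close to the 8% of pre-B cell-like cells (interval 2.99 to 16.6), whose median depth was 4839.5 UMIs. The Plin2 level in pre-B cell-like cells was 86.1 CPM (MGJ) and 36.0 CPM (MGJ2), beside 47.5 and 34.2 CPM in Col10a1-high cells. Whether free RNA contributes to the Plin2 ratio was not tested. Macrophage markers summed to 32.9, 35.1 and 94.8 CPM in library MGJ and mature neutrophil markers summed to 364, 279 and 322 CPM. In library MGJ2 the sums were 42.0, 88.8 and 129 CPM for macrophage markers and 172, 174 and 164 CPM for neutrophil markers. The macrophage sum was higher in high than in low cells in both libraries and the neutrophil sum in neither, and the part of other cells in the Plin2 ratio was not tested. Mitochondrial UMIs did not rise with the stage, with medians of 3.78%, 2.99% and 2.75% in low, moderate and high cells (MGJ) and 3.42%, 2.82% and 2.59% (MGJ2). At most 10% were mitochondrial in 493 of 498 and 51 of 53 high cells. Clustering again with at least 500 genes and at most 10% mitochondrial UMIs nevertheless left 41 and 3 high against 1329 and 31 low cells in the chondrocyte-like class, with Plin2 ratios of 2.10 and 1.09, a Fabp5 ratio of 0.300 in library MGJ and no Fabp5 UMI in the 3 high cells of library MGJ2. The Plin2 ratio of library MGJ fell to 1.21 under stricter class naming, 1.81 with lipid genes allowed in clustering and 1.93 with cells placed by their marker scores.

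Of the fixed pathway lists, cholesterol synthesis ran opposite to the exporters in chondrocyte-like cells. Of its 20 genes, 17 were called higher than in all other cells in library MGJ (12.2% of all tested genes) and 15 in library MGJ2 (19.7%), with none lower and median log2 ratios of 1.75 and 2.10 against -0.20 and -0.29 over all tested genes. Fdps, which makes farnesyl diphosphate, was at 189 against 39.1 CPM and 122 against 14.0 CPM, and Sqle, the squalene oxidase, at 65.1 against 19.3 CPM and 48.1 against 3.35 CPM. Srebf2, the transcription factor of the pathway, was not called, at ratios of 1.42 and 1.23.

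The efflux and liver X receptor list had 7 of 11 genes lower in chondrocyte-like cells in each library (25.9% and 33.3% of all tested genes were), with Nr1h3, which encodes LXR alpha, at 0.891 against 12.0 CPM and 0.784 against 11.8 CPM. Scarb1, the receptor of high-density lipoprotein, was the efflux gene called higher in both (41.2 against 13.9 CPM and 38.2 against 14.0 CPM). Of 12 uptake receptors, Vldlr, which binds Apoe-rich particles, was at 48.0 against 12.3 CPM and 53.1 against 3.46 CPM, while Msr1, Cd36, Olr1, Trem2 and Stab1 were lower in both libraries. Tyrobp, the signalling adaptor of Trem2, was at 13.2 against 1193 CPM and 12.0 against 1608 CPM, and all 6 genes of the Trem2 list were lower in each library. Between the stages of library MGJ, 12 of 20 cholesterol synthesis genes were higher in Col10a1-moderate than in low cells (2.86% of all tested genes, median log2 ratio 1.03) and 7 of 20 in high than in low cells (8.5%, median log2 ratio 0.74), with none lower. In library MGJ2, where 14 had enough UMIs, 1 of 20 was higher in moderate cells (3.87% of all tested genes), and in high cells 0 were higher (6.74%) and 3 lower (9.25%).

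In macrophage-like over monocyte-like cells, Nr1h3 was 2.52-fold and 3.21-fold higher (51.9 against 20.6 CPM and 99.7 against 31.1 CPM). The list of efflux and liver X receptor genes had 4 of 11 higher and 0 lower in library MGJ, beside 13.2% and 3.49% of all tested genes, and 3 of 11 higher and 3 lower in library MGJ2, beside 19.9% and 16.1%. Abca1 and Abcg1 themselves belong to this list. Pltp, which transfers phospholipid between lipoproteins, was at 483 against 103 CPM and 299 against 61.7 CPM, and the lysosomal protease Ctsd at 3224 against 821 CPM and 2960 against 643 CPM. Dgat2 lay the other way at ratios of 0.251 and 0.224. Tyrobp was not called (ratios 0.785 and 0.864), although its partner Trem2 was. Among cholesterol synthesis genes 1 of 20 (MGJ) and 3 of 20 (MGJ2) were higher, of 16 and 14 with enough UMIs and beside 13.2% and 19.9% of all tested genes, and Mvd was lower in library MGJ2.

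The genes whose pattern was most like each member were ranked by the Pearson correlation of log2(CPM + 10) over the 12 classes with at least 50 cells in both libraries, among 12782 genes, taking the lower of the 2 libraries. The 12 points of a library share its depth and free RNA, so these values are descriptions. Lrp1 had Sgk1, a kinase (0.88 and 0.87), and Hk2, a hexokinase (0.90 and 0.87), among its closest genes. Trem2 was closest to Gpnmb, a glycoprotein of lysosome-rich phagocytes (0.92 and 0.96), then Cln8 and Wwc1. Abca1 was closest to Hmox1, the haem-degrading oxygenase (0.87 in both), then Slc6a6 and Bcl10, and Plin2 to Rab20 (0.97 and 0.95), then C5ar1, the complement C5a receptor. Cd36 was closest to Cd300lg, Stab1 and Ace, Fabp4 to Ldb2, Adamts4 and Pcdh19, and Lpl to Fblim1, Nptxr and Rilpl1. Fabp5 had Arl8b and Dcstamp, the osteoclast fusion gene, first, Abcg1 had Mob1b and Senp2, and Apoe had Msr1, the scavenger receptor of macrophages.

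The 3 pairs of members with the highest correlation over these 12 classes, by the lower of the 2 libraries, were as follows. Cd36 and Fabp4 had correlations of 0.80 and 0.76, Abca1 and Plin2 0.78 and 0.72, and Fabp5 and Trem2 0.75 and 0.79. Fabp4 and Trem2 were at -0.07 and -0.19, and the 2 paralogs Fabp4 and Fabp5 at 0.27 and 0.05. With Apoe, Trem2 was at 0.69 and 0.64 and Abcg1 at 0.57 and 0.58, whereas Fabp4 was at 0.02 and 0.24.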

How the data were processed

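The 2 scRNA-seq libraries of callus from wild-type mice were analysed. The deposited values are raw UMI counts per gene and barcode, which the authors made from Chromium single-cell 3' V3 libraries (Cell Ranger 4.0.0, per the file headers). The submitters' processing notes name GRCm38 and Seurat. Clustering used Scanpy 1.11.5 (2000 variable genes, 30 principal components, 15 neighbours, Leiden resolution 1, without 111 lipid genes) after doublet calling, which marked 1.04% and 2.84% of cells. Clusters were named from 24 marker lists by a rule set after their leading genes were seen. Chondrocyte-like sub-clusters led by other markers were set aside (259 and 9 cells). Levels, ratios and intervals came from summed counts (scipy 1.17.1). Ratio calls were tried on counts simulated with counting error only, without variation between cells or animals. Gene positions are GENCODE M21 on GRCm38. The members and all lists were chosen with earlier results of these data known. Genes named are the members, Apoe, the list and marker genes, and per member the 3 most alike genes. Alternatives changed filters, doublets, resolution, class rules, thresholds, Col10a1 limits, cell weights and thinning. Total counts per library and the intervals set the precision. Library days were not assigned, so days were not compared. A few named genes are not reported here.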

Additional observations from a re-analysis of the deposited data

Results flagged for a closer look

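Barcodes that the filter and doublet calling removed entered no comparison, and they carried signal of the members above the level that 3 counts allow. In the 975 removed barcodes of library MGJ the 9 members together were at 1525 CPM (95% Poisson interval 1485 to 1565, against a limit of 0.811 CPM), beside 1469 CPM in kept cells. The 425 removed barcodes of library MGJ2 held 906 CPM (interval 873 to 941, limit 0.992 CPM), beside 892 CPM in kept cells. Apoe was at 2101 against 1387 CPM in library MGJ and at 717 against 653 CPM in library MGJ2. Lpl in library MGJ2 was at 7.61 CPM in removed barcodes and 38.6 CPM in kept cells.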

How the results depend on the processing

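The count of members lower in chondrocyte-like cells stayed at 8 or within 1.5 times of it under every alternative. The Fabp5 ratio of library MGJ2 ranged from 0.337 to 0.762, so Fabp5 was not called lower under every alternative. Members higher in macrophage-like over monocyte-like cells went from 7 to 4 in library MGJ when phagocytes were placed by C1q genes, and from 6 to 3 in library MGJ2 at resolution 0.5. That resolution left 110 monocyte-like cells in library MGJ and reversed Abcg1 (0.624), Cd36 (0.945) and Fabp4 (0.635) in library MGJ and Cd36 (0.993) and Fabp4 (0.939) in library MGJ2. The 1 member higher in Col10a1-high cells became 0 in library MGJ with cells placed by marker score, with lipid genes allowed in clustering and with stricter naming, which was added after seeing the data. In library MGJ2 it became 0 with at least 500 genes and at most 10% mitochondrial UMIs, with lipid genes allowed and with stricter naming, and 2 with no minimum beyond 1 UMI. Those settings left 3, 2 and 1 Col10a1-high cells of 53, and with 2 and 1 cells the Plin2 ratio was 0. Members highest in a mononuclear phagocyte class in library MGJ2 went from 2 to 4 (at least 500 genes, and marker score), 5 (resolution 0.5) and 1 (doublet calls kept, and lipid genes allowed). Requiring the counting interval to leave out 1, also added after seeing the data, changed no count of members, and lowered the background of macrophage-like over monocyte-like cells in library MGJ2 from 19.9% to 14.5%. No paired analysis was possible because the labels give no replicate numbers and 1 library stands for each sample. Classes under 50 cells limit library MGJ2 most.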
